A study of Mus musculus with 8 samples.

Results

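The 10 genes followed here mark plasmacytoid dendritic cells and their precursors: Siglech, Bst2, Cox6a2, Tcf4, Runx2, Spib, Ly6c2, Pacsin1, Cd7 and Lag3. They are known markers, picked by name out of 37991 gene IDs in the count table, with earlier results of these data known. All 10 passed the filter on low counts that left 13722 genes for testing. Plasmacytoid dendritic cells are the dendritic cells that make type I interferon when they meet viral nucleic acid. They can arise from lymphoid progenitors as well as from myeloid ones, and some of the progenitors that give rise to them also give rise to B cells. The E protein Tcf4 (also called E2-2) sets and keeps their identity, Spib and Runx2 act with it, and their endosomal toll-like receptors signal through Myd88 to Irf7.

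RNA came from B-cell-biased lymphoid progenitors, which were enriched for Kit (c-Kit, CD117) on magnetic beads and then sorted from the bone marrow of mice aged 5 to 12 weeks. The group H2afy_KO held 4 pools from H2afy-/- mice and the group H2afy_WT 4 pools from H2afy+/+ mice. H2afy encodes the histone variant macroH2A1, and both groups shared the tissue, the sort and the library protocol. Each pool combined RNA of 5000 to 15000 cells from 2 to 3 mice. The labels do not give the strain or sex of the mice, or which part of the allele was deleted. The comparison asks how transcripts of the sorted pools differ with loss of H2afy, here those that mark plasmacytoid dendritic cells.

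Totals were 21330088 to 29029765 counts per pool. The targeted gene, H2afy, averaged 1659 ± 238 CPM (counts scaled to library size) in mutant pools and 2267 ± 288 CPM in wild-type ones (SD, n = 4 pools each; log2 fold change -0.45, SE 0.15, adjusted p = 0.504 from edgeR). As the deleted exons are not known, these reads are no check of the genotypes. Immunoglobulin genes took 0.403% to 39.4% of the counts of a pool, with H2afy_KO 3 and 4 highest and H2afy_KO 1 lowest. The summed level of 9 plasma cell markers, led by the joining chain gene Igj, ordered the 8 pools exactly as that share did. It ran from 180.1 to 20830 CPM in H2afy_KO and from 601 to 9179 CPM in H2afy_WT, and none of the 9 was at 0 in all pools. The pools are bulk samples of sorted cells, so a change in RNA per cell cannot be told apart from a change in the number of plasmacytoid cells or precursors that passed the gate.

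The promoters of a pair of the genes are shown because they encode surface markers of plasmacytoid cells, and because Bst2 is both a plasmacytoid marker and an interferon-induced gene. Each is the stretch of 250 bases before the start site in RefSeq (build GRCm38.p6), read 5′ to 3′ on the strand of the gene. The Bst2 stretch is chr8:71537473-71537722 on the minus strand, and its capitals mark matches to GAAA, any 2 bases, then GAAA, the core of the element bound by interferon-activated factors. The Siglech stretch is chr7:55767934-55768183 on the plus strand, and its capitals mark matches to CANNTG, the E-box to which E proteins such as Tcf4 bind.
Bst2: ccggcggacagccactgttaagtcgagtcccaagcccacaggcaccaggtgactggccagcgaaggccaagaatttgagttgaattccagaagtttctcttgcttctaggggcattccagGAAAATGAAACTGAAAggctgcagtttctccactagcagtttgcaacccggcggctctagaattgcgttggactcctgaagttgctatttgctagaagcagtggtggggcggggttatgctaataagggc
Siglech: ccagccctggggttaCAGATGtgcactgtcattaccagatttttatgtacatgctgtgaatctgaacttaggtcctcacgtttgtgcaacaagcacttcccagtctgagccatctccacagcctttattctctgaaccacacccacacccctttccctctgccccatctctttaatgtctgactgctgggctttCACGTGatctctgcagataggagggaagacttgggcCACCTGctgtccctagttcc
That first motif, searched on both strands, matched 2 times in the Bst2 stretch, and these matches overlap, starting 130 and 124 bases before the start site. Of 32851 promoters of the same length, 2.98% held it. Of the 6 members whose promoters were counted here (Siglech, Bst2, Runx2, Spib, Ly6c2 and Pacsin1), Bst2 alone did. Tcf4, Cox6a2, Cd7 and Lag3 were left out of these counts, which therefore do not describe all 10 members. CANNTG, which reads the same on both strands, matched 3 times in the Siglech stretch, where it is a common motif (66.2% of promoters). It was found in the promoters of 5 of the 6 members, all but Pacsin1. The motif of Runt-family factors, TGTGGT (14.0% of promoters, both strands), was in 4 of the 6, Siglech, Runx2, Ly6c2 and Pacsin1. GAGGAA, a purine-rich Ets-type motif (23.3%, both strands), was in Ly6c2 alone. These matches describe letters and do not show binding.

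All 10 genes had counts in every H2afy_WT pool, which does not show which cells of a pool held them. Per length of exon, Ly6c2 was highest over the 8 pools at a mean of 302 RPKM (CPM per kilobase of merged exons), followed by Cox6a2 at 247 RPKM and Bst2 at 101 RPKM. Siglech (36.0 RPKM), Tcf4 (34.3 RPKM) and Cd7 (27.9 RPKM) came next and did not differ from one another beyond the spread of their pools. Runx2 was at 13.8 RPKM, Spib at 2.76 RPKM, Lag3 at 1.33 RPKM and Pacsin1 at 0.400 RPKM. Ly6c2 ranged too widely between pools to be ordered against Cox6a2 or Bst2: it led through H2afy_KO (456 ± 566 RPKM, SD, n = 4), and in H2afy_WT its mean was under that of Cox6a2 (148 ± 133 against 195 ± 23.4 RPKM, SD, n = 4 each). Among surface genes of lymphoid progenitors, Flt3, the receptor of the cytokine that drives dendritic development, had 162 RPKM, Kit 48.4 RPKM, Il7r 119.5 RPKM, Ly6a 256 RPKM and Ly6d 1220 RPKM. Ly6a stood at 618 and 397 CPM in H2afy_KO 3 and 4, the pools richest in immunoglobulin, and at 69.5 to 156 CPM in the others. Gene coordinates in the following are those of mm9 as GENCODE M1 gives them.

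Tcf4, Runx2 and Spib encode the transcription factors. Tcf4 (ENSMUSG00000053477) stood at 446, 360.1, 505 and 430.3 CPM in pools 1 to 4 of H2afy_KO, against 387, 353, 445 and 432 CPM in those of H2afy_WT. The groups overlapped through most of their range, and within H2afy_WT Tcf4 varied least of the 10 genes between pools (coefficient of variation 10.4%). Within H2afy_KO it came second to Cox6a2 (13.7% against 11.6%). Its log2 fold change, H2afy_KO over H2afy_WT, was 0.11 (SE 0.14, adjusted p = 0.897 by the quasi-likelihood test of edgeR with Benjamini-Hochberg adjustment).

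Runx2 (ENSMUSG00000039153, chromosome 17, 44632936 to 44951746, minus strand), a Runt-family factor needed for plasmacytoid cells to leave the marrow, stood at 129, 122, 165 and 162 CPM in H2afy_KO pools 1 to 4. In the H2afy_WT pools it was at 88.3, 72.0, 102 and 133 CPM. Only H2afy_WT 4 reached into the H2afy_KO range, and Runx2 was higher in H2afy_KO in each of the 4 same-numbered pairs. What a pool number stands for is not stated. The log2 fold change was 0.55 (SE 0.19, adjusted p = 0.510, edgeR). A second gene ID of the same name (ENSMUSG00000092206), whose 2532 exonic bases all lie in exons of the first, held 0 counts in every pool, and how reads in the shared exons were counted is not known. Runx2 also shares 519 exonic bases with the antisense gene Gm10497, which had at most 1.38 CPM in any pool.

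Spib (ENSMUSG00000008193, chromosome 7, 51781365 to 51787441, minus strand), an Ets-family factor of plasmacytoid cells that B cells also use, was low. Its level over H2afy_KO pools 1 to 4 was 3.05, 10.5, 10.4 and 12.5 CPM, and over the H2afy_WT pools 4.02, 5.74, 7.87 and 8.72 CPM. H2afy_KO 1 was the lowest of the 8 pools and the other H2afy_KO pools were the 3 highest. On the log2 scale the difference was 0.47 (SE 0.41, adjusted p = 0.821, edgeR).

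**Figure D1:**
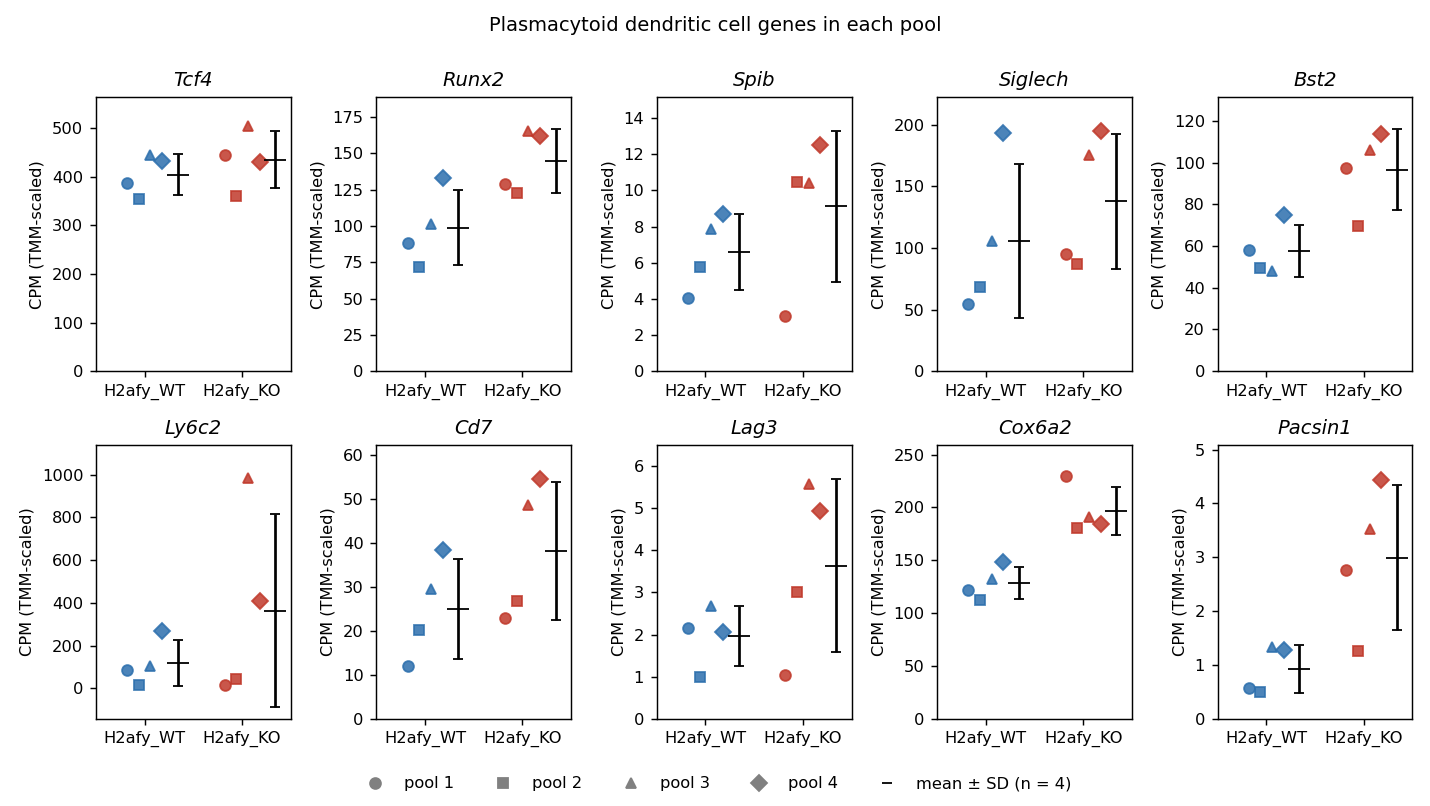
Level of each gene in each pool (y axis, CPM with TMM-scaled library sizes, each panel on its own scale; x axis, genotype). Symbols are pools 1 to 4, and bars are the mean ± SD of 4 pools. Cox6a2 is the gene whose groups do not overlap (H2afy_KO 180.6 CPM and above, H2afy_WT 148 CPM and below).

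Among the surface proteins, Siglech (ENSMUSG00000051504, chromosome 7, 63023548 to 63034295, plus strand) encodes the sialic acid-binding receptor that defines mouse plasmacytoid cells. It measured 94.8, 87.0, 175 and 195 CPM across pools 1 to 4 of H2afy_KO and 54.3, 68.3, 106 and 193 CPM across those of H2afy_WT. The difference between pools of one genotype, 3.56-fold from lowest to highest in H2afy_WT and 2.24-fold in H2afy_KO, was larger than that between the group means (1.31-fold). Siglech was higher in H2afy_KO in 4 of 4 same-numbered pairs, with H2afy_WT 4 nearly level with H2afy_KO 4. The log2 fold change was 0.39 (SE 0.46, adjusted p = 0.881, edgeR).

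Bst2 (ENSMUSG00000046718, chromosome 8, 74058163 to 74061336, minus strand), also called tetherin, holds budding virus at the cell surface. It stood at 97.4, 69.6, 106 and 114 CPM in pools 1 to 4 of H2afy_KO, against 58.4, 49.6, 48.0 and 75.1 CPM in those of H2afy_WT. H2afy_KO 2 lay just under H2afy_WT 4, and the other H2afy_KO pools lay above all H2afy_WT pools. Means were 96.7 ± 19.3 and 57.7 ± 12.4 CPM (SD, n = 4 each), a ratio of 1.68. The difference was 0.74 on the log2 scale (SE 0.19, adjusted p = 0.420, edgeR).

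Ly6c2 (ENSMUSG00000022584, chromosome 15, 74938590 to 74942114, minus strand), a GPI-anchored surface protein found on plasmacytoid cells, monocytes and plasma cells, varied most. Its level over H2afy_KO pools 1 to 4 was 14.1, 44.2, 983 and 409.7 CPM, and over the H2afy_WT pools 84.2, 16.4, 104 and 267 CPM. H2afy_KO held both the lowest and the highest pool, 69.9-fold apart, so the log2 fold change of 1.62 (SE 1.43, adjusted p = 0.835, edgeR) rests on H2afy_KO 3 and 4. Its close paralog Ly6c1, looked up after the values were seen, was also highest in H2afy_KO 3, at 16.8 CPM against 1.13 to 6.71 CPM in the other pools. Reads of near-identical stretches of the pair may be split between them.

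Cd7 (ENSMUSG00000025163, chromosome 11, 120898061 to 120900732, minus strand), an immunoglobulin-superfamily receptor of T cells, natural killer cells and plasmacytoid precursors, stood at 22.9, 26.9, 48.6 and 54.6 CPM in H2afy_KO pools 1 to 4. The H2afy_WT pools were at 12.1, 20.2, 29.6 and 38.3 CPM. The groups interleaved, yet every H2afy_KO pool exceeded the H2afy_WT pool of its number, and the log2 fold change was 0.61 (SE 0.40, adjusted p = 0.764, edgeR). An antisense gene, Gm11775, shares 122 exonic bases with Cd7 and had under 0.1 CPM in every pool. Lag3 (ENSMUSG00000030124, chromosome 6, 124854379 to 124861723, minus strand), an inhibitory receptor of class II molecules, rested on only 26 to 117 counts per pool. It measured 1.05, 3.00, 5.58 and 4.94 CPM across pools 1 to 4 of H2afy_KO and 2.16, 0.981, 2.68 and 2.07 CPM across those of H2afy_WT. H2afy_KO 1 lay near the lowest H2afy_WT pool and the other H2afy_KO pools above all of them (log2 fold change 0.88, SE 0.50, adjusted p = 0.723, edgeR).

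Cox6a2 and Pacsin1 encode proteins inside the cell. Cox6a2 (ENSMUSG00000030785, chromosome 7, 135348950 to 135349880, minus strand) is a subunit isoform of cytochrome c oxidase otherwise typical of heart and skeletal muscle. It stood at 229.9, 180.6, 191 and 184 CPM in pools 1 to 4 of H2afy_KO, against 122, 112, 132 and 148 CPM in those of H2afy_WT. All 4 H2afy_KO pools lay above all H2afy_WT pools, which of the 10 genes held for Cox6a2 alone and over all genes tested for 2.18%. The reverse, all H2afy_KO pools below, held for 0 members and 2.35% of genes. Its log2 fold change was 0.61 (SE 0.13, adjusted p = 0.360, edgeR), with means of 196 ± 22.7 and 129 ± 15.4 CPM (SD, n = 4 each). Its exons share 66 bases with Itgad on the other strand, and reads there cannot be told apart without strand. Itgad itself had at most 11.6 CPM in any pool.

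Pacsin1 (ENSMUSG00000040276, chromosome 17, 27792454 to 27848051, plus strand), an endocytosis adaptor otherwise known from neurons, was near the limit of detection with 13 to 105 counts per pool. Its level over H2afy_KO pools 1 to 4 was 2.76, 1.26, 3.52 and 4.43 CPM, and over the H2afy_WT pools 0.574, 0.491, 1.34 and 1.28 CPM. H2afy_KO 2 was just under the 2 highest H2afy_WT pools, and the other H2afy_KO pools were above all of them. Its ratio of means, 3.25, was the highest of the 10 genes, and its log2 fold change was 1.70 (SE 0.49, adjusted p = 0.467, edgeR).

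Counted over the members, 0 of 10 passed edgeR's test at an adjusted p of 0.05 in either direction, as did 0.00% of the 13722 genes tested. At an unadjusted p under 0.05 the test put 4 members above (Cox6a2, Bst2, Pacsin1 and Runx2) and 0 below, against 3.88% of all genes higher and 3.69% lower. All 10 log2 fold changes were positive, as were 50.1% of those of all genes, and the median was 0.61 against 0.00 for all genes tested. In 6 of the 10, H2afy_KO was higher in 4 of 4 same-numbered pairs, which held for 10.1% of all genes. These pair counts and the block fits below rest on a pairing that the labels do not state and that is only a hint from the data. DESeq2 called 2 members higher, Cox6a2 (adjusted p = 0.0179) and Bst2 (adjusted p = 0.0482), where it called 0.335% of its 14636 genes higher and 0.540% lower, with 0 members lower. DESeq2 fitted with same-numbered pools as blocks was added once results were known, and it called 5 members higher, Bst2, Cox6a2, Runx2, Cd7 and Pacsin1, with adjusted p from 8.31e-05 to 0.00584. It called 1.70% of all genes higher and 1.61% lower, and 0 members lower. With that block the adjusted p from edgeR was 0.0765 for Bst2 and 0.0952 for both Cox6a2 and Runx2, so 0 members passed there too, with 0.0292% of all genes called higher and 0.0802% lower. In that fit 6 members had an unadjusted p under 0.05, the 4 above with Cd7 and Siglech, all higher, against 6.23% of genes higher and 5.74% lower.

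**Figure D2:**
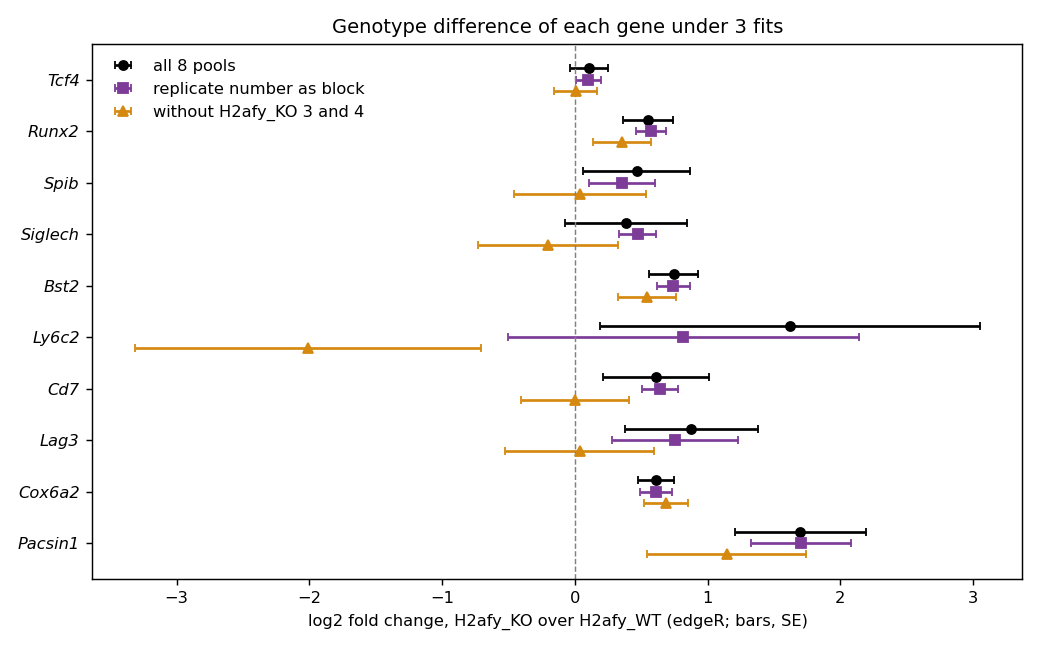
The log2 fold change of each gene (x axis, H2afy_KO over H2afy_WT, bars are the SE) in edgeR with all 8 pools, with the replicate number as a block, and without H2afy_KO 3 and 4. Bst2, Cox6a2, Runx2 and Pacsin1 stay right of 0 under all 3. Tcf4, Spib and Lag3 do too, but lie close to 0 in the last (0.0056, 0.04 and 0.04). Siglech, Cd7 and Ly6c2 cross 0 in the last (-0.20, -0.0005 and -2.01).

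The pools were not alike in these genes. Within H2afy_KO, 9 of the 10 genes were highest in pool 3 or 4, the exception being Cox6a2, which was highest in pool 1. Within H2afy_WT, 7 were highest in pool 4 and 3 in pool 3. The share of all genes that were highest in those pools, or positive in the settings below, is not given here. The direction of some members depended on which pools were compared, by settings added once results were known. Without H2afy_KO 3 and 4 the median log2 fold change of the members was 0.04, and 7 of 10 were positive. Siglech was then at -0.20 (SE 0.53), Cd7 at -0.0005 (SE 0.41) and Ly6c2 at -2.01 (SE 1.30). Cox6a2 stayed at 0.69 (SE 0.165), Bst2 at 0.54 (SE 0.22), Pacsin1 at 1.14 (SE 0.60) and Runx2 at 0.36 (SE 0.22). Spib was at 0.04 (SE 0.50), Lag3 at 0.04 (SE 0.56) and Tcf4 at 0.0056 (SE 0.16). That setting keeps the H2afy_WT pools 3 and 4, which were themselves high. With pools 3 and 4 of both genotypes left out, 9 of 10 were positive and the median was 0.60, with Siglech at 0.57 (SE 0.20) and Ly6c2 at -0.79 (SE 1.16). With pools 1 and 2 of both genotypes left out, 10 of 10 were positive and the median was 0.53.

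The level of some members followed the immunoglobulin share of the pool. Over the 8 pools the log2 level of Lag3 rose with the log2 share (Pearson r = 0.93, exact permutation p = 0.00126, adjusted 0.0126 over the 10 genes; 2-sided; Spearman rho = 0.86, exact permutation p = 0.0107, adjusted 0.0357). That of Ly6c2 did so too (r = 0.89, exact permutation p = 0.00288, adjusted 0.0144, and rho = 0.95, exact permutation p = 0.00114, adjusted 0.0114). Both are genes known from plasma cells as well, and the part of plasma cells in these levels was not tested. Spib passed on r (0.88, exact permutation p = 0.0062, adjusted 0.0207) but not on rho (0.76, exact permutation p = 0.0368, adjusted 0.0920). With immunoglobulin genes out of the library sizes Spib passed on rho too (0.86, exact permutation p = 0.0107, adjusted 0.0267). Cd7 passed on rho (0.86, exact permutation p = 0.0107, adjusted 0.0357) but not on r (0.70, exact permutation p = 0.0545, adjusted 0.136). Leaving out H2afy_KO 1 and H2afy_WT 2, whose shares lay farthest from the median, r was 0.81 for Lag3, 0.74 for Ly6c2, 0.84 for Spib and 0.94 for Cd7.

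The other 6 members did not pass on either measure. For Siglech r was 0.66 (exact permutation p = 0.0769, adjusted 0.154; rho = 0.71, exact permutation p = 0.0576, adjusted 0.115), and 0.84 without those pools. For Cox6a2 r was 0.06 (exact permutation p = 0.886, adjusted 0.886; rho = 0.24, exact permutation p = 0.582, adjusted 0.582), and 0.71 without those pools. The genotypes differed in order: H2afy_KO 1, with the least immunoglobulin of its genotype, held the most Cox6a2, and H2afy_WT 2, with the least of its own, held the least. With 4 pools each, no correlation is given within a genotype. For Bst2 r was 0.25 (exact permutation p = 0.533, adjusted 0.592; rho = 0.38, exact permutation p = 0.36, adjusted 0.400). Without those pools r for Bst2 was 0.64. For Tcf4, Runx2 and Pacsin1 r was 0.42 to 0.57 and rho 0.40 to 0.67, with adjusted exact permutation p-values of 0.235 to 0.370 and 0.138 to 0.400, and r without those pools was 0.75 to 0.94. With the share as a covariate in edgeR, Bst2 stayed at a log2 fold change of 0.73 (SE 0.19), Cox6a2 at 0.62 (SE 0.13), Runx2 at 0.51 (SE 0.15) and Pacsin1 at 1.68 (SE 0.46). In the same fit Ly6c2 went to 0.27 (SE 0.73), Spib to 0.17 (SE 0.27) and Lag3 to 0.48 (SE 0.30).

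**Figure D3:**
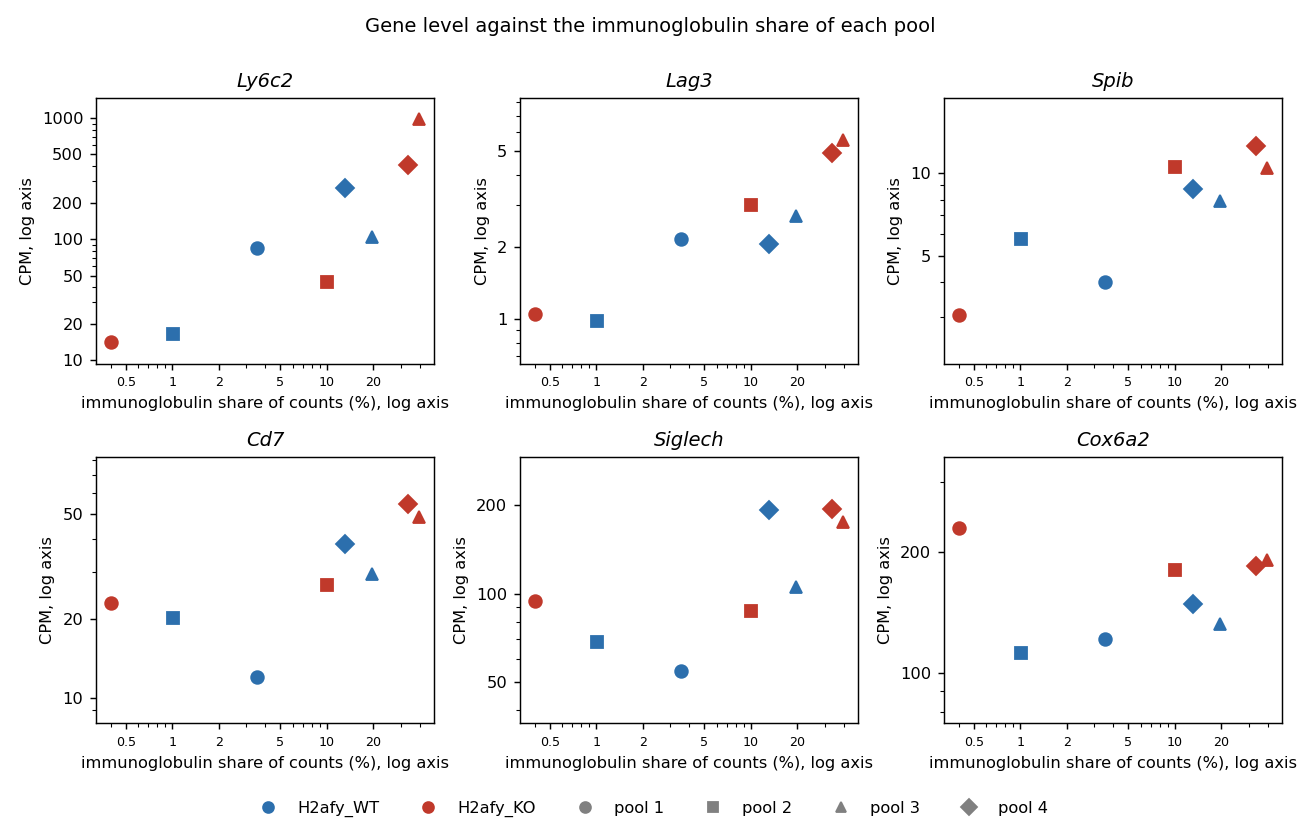
Level of 6 of the genes (y axis, CPM, log axis) against the share of counts from immunoglobulin genes (x axis, percent, log axis), 1 symbol per pool. Ly6c2 and Lag3 climb with the share (r = 0.89 and 0.93), and in Cox6a2 all 4 H2afy_KO pools sit above all H2afy_WT pools, with the highest at the lowest share.

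Siglech was also used to rank all genes with a mean of at least 5 CPM by likeness of their log2 levels over the 8 pools. Of 9606 genes, the most alike were Lrba (r = 0.97), Fyb (0.97), Nceh1 (0.95), Cd7 (0.95) and Icam1 (0.95), and 30 genes had an r over 0.9. With 8 points many genes reach high values, so the ranking is a description. Cd7 was the only other member among the 5, and Lag3 and Pacsin1, which averaged under 5 CPM, were not ranked. Runx2 had an r of 0.84 (rank 121) and Cox6a2 one of 0.48 (rank 1755).

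Other genes of the plasmacytoid program were read from 3 lists. Of 23 further markers 20 were tested. None of the 20 passed edgeR's test, 4 had an unadjusted p under 0.05 (3 up, 1 down, against 3.88% and 3.69% of all genes) and DESeq2 called 1, Blnk, lower (0.540% of its genes). A positive log2 fold change was found in 18 of the 20 (50.1% of all genes tested), with a median of 0.63. All 3 untested genes, Gzmb, Ptcra and Klk1b27, averaged under 1 CPM. Some of these changes also depended on the pools. Without H2afy_KO 3 and 4, Fcrla went from 1.67 to -0.91 (SE 1.19) and Grn from 0.86 to -0.06 (SE 0.32). In that setting Plac8 was at 0.57 (SE 0.18) and Nucb2 at 0.34 (SE 0.16). The smallest p-values belonged to Blnk and Lair1. Blnk, a B cell receptor adaptor that plasmacytoid cells also express, averaged 301 ± 64.1 CPM in mutant and 516 ± 116 CPM in wild-type pools (SD, n = 4 pools each; -0.78 on the log2 scale, SE 0.20, adjusted p = 0.426, edgeR). Lair1, an inhibitory collagen receptor, had 65.0 ± 19.96 and 33.3 ± 12.2 CPM (0.96, SE 0.29, adjusted p = 0.473, edgeR).

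Of the 16 regulators of the lineage 0 passed in edgeR without the block, 4 had an unadjusted p under 0.05 (2 up, 2 down, against 3.88% and 3.69% of all genes), and the median log2 fold change was 0.01. Irf8, a factor of dendritic and monocyte development that also acts in B cells, had the smallest p (log2 fold change 1.02, SE 0.15, adjusted p = 0.0722, edgeR; adjusted p = 0.0420 with the replicate block). DESeq2 called Irf8 higher, with an adjusted p of 6.74e-06, and of 8.27e-11 with the replicate block. It called 0.335% of its genes higher without the block and 1.70% with it. For Irf8 the pools ran from 272 to 355 CPM in H2afy_KO and from 122 to 179.8 CPM in H2afy_WT, and the groups did not overlap. Id3, an inhibitor of E proteins, stood at 3.87, 11.1, 4.37 and 14.2 CPM in H2afy_KO pools 1 to 4 and at 44.6, 27.3, 23.7 and 17.3 CPM in those of H2afy_WT (log2 fold change -1.75, SE 0.48, adjusted p = 0.467, edgeR). All H2afy_KO pools lay below all H2afy_WT pools. DESeq2 called Id3 lower (adjusted p = 0.00434), a call that was lost with the replicate block (adjusted p = 0.0737 in DESeq2 and 0.402 in edgeR). The other 2 of the 4 were Mycl1 (0.99, SE 0.35), a Myc-family factor of dendritic cells, and Ets1 (-0.91, SE 0.33), with edgeR adjusted p of 0.527 and 0.566. DESeq2 with the block called both (adjusted p = 0.0315 and 0.000581). Id2, the inhibitor whose loss favours plasmacytoid over conventional dendritic cells, was at 0.22 (SE 0.20), Zeb2 at 0.23 (SE 0.12), Bcl11a at -0.27 (SE 0.14) and Flt3 at 0.06 (SE 0.14). The E protein partners Tcf3 and Tcf12 were at -0.25 (SE 0.28) and 0.25 (SE 0.21). Irf4 was at 1.18 (SE 0.90) and Stat3 at 0.32 (SE 0.15), and Cbfa2t3, Ikzf1, Spi1 and Nfil3 lay between -0.07 and -0.05.

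In the list of endosomal nucleic acid sensing, 11 of 12 genes were tested, 0 passed in edgeR or DESeq2 and 2 were higher at an unadjusted p under 0.05 (3.88% of all genes), with a median log2 fold change of 0.10. These were Unc93b1, the chaperone that carries toll-like receptors to endosomes (191 ± 59.3 and 120.3 ± 9.58 CPM, SD, n = 4 each; 0.66, SE 0.20, adjusted p = 0.473, edgeR), and Irf7, which drives interferon genes (0.59, SE 0.18, adjusted p = 0.473, edgeR). The receptor gene Tlr7 was at 48.0 ± 3.52 and 50.2 ± 8.06 CPM (SD, n = 4 each; -0.07, SE 0.14). Tlr9, the DNA sensor of these cells, averaged 0.654 and 0.287 CPM. Ifnb1, which encodes interferon beta, had 0 counts in every pool, which at these depths allows up to 0.103 to 0.141 CPM (3 counts per library; counting error only).

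**Figure D4:**
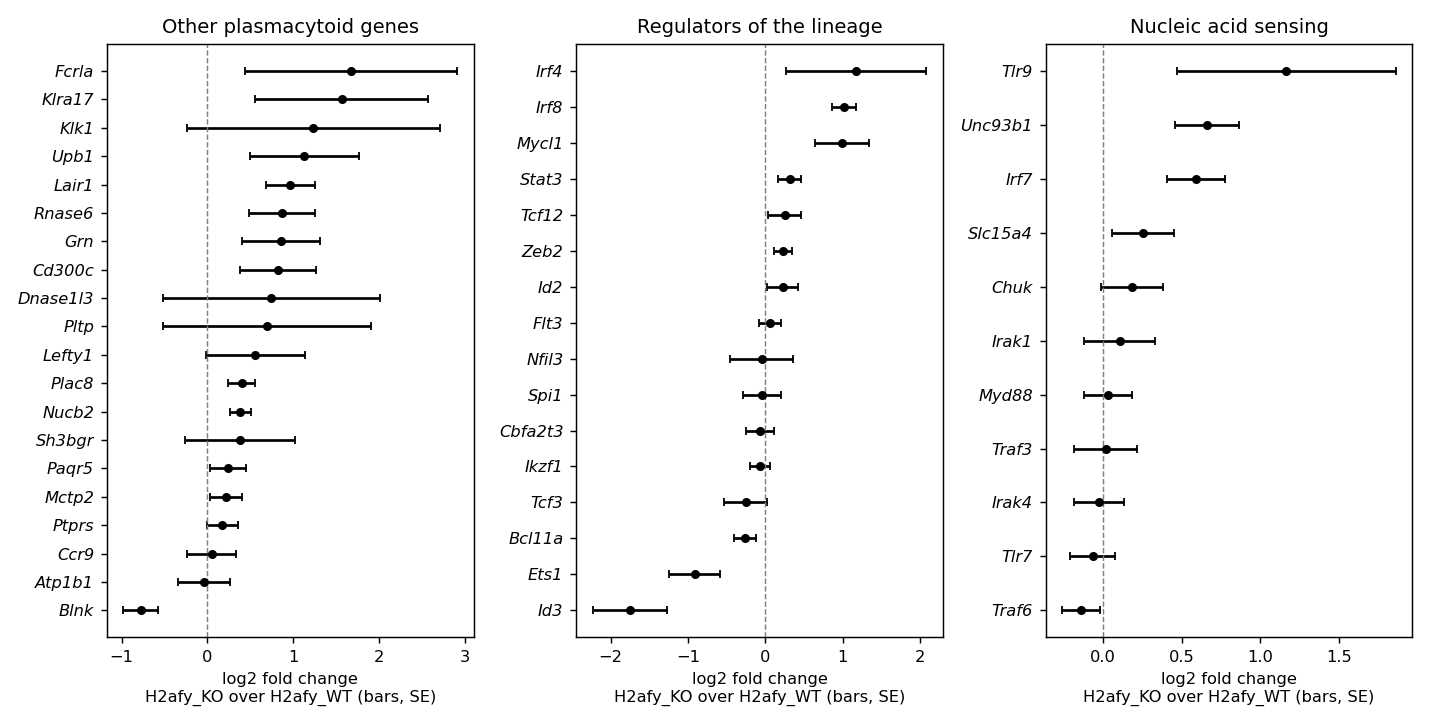
The log2 fold change (x axis, H2afy_KO over H2afy_WT, bars are the SE, edgeR) of the tested genes of 3 lists, each row 1 gene. In the left panel 18 of 20 points lie right of 0 and Blnk stands farthest to the left (-0.78); in the middle panel Irf8 (1.02) and Id3 (-1.75) lie on opposite sides.

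Because Bst2 is induced by interferon, 16 interferon response genes were read beside it. None passed edgeR's test, 7 had an unadjusted p under 0.05, all of them up (3.88% of all genes), and DESeq2 called 2 higher, Mx1 and Isg15 (0.335% of its genes). The median log2 fold change was 0.37. Mx1 was at 0.97 (SE 0.22) and Isg15 at 0.68 (SE 0.18), and in 5 of the 16 all H2afy_KO pools lay above all H2afy_WT pools (2.18% of all genes). The part of an interferon response in the Bst2 level was not tested.

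Markers of other cells were read for their levels. For comparison with the counts of positive genes below, 50.1% of all genes tested had a positive log2 fold change. Of 9 tested genes of conventional dendritic cells 8 had a positive log2 fold change (median 0.55, 0 passed in edgeR or DESeq2, 4 higher at an unadjusted p under 0.05, against 3.88% of all genes), with H2-Eb1 at 0.71 (SE 0.22) and Clec9a at 1.20 (SE 0.43). Their summed level was 933 to 7662 CPM in H2afy_KO and 963 to 3403 CPM in H2afy_WT, most of it Cd74, which B cells also express (697 to 7342 and 801 to 3126 CPM), and Batf3 averaged under 1 CPM. All 9 plasma cell genes had a positive log2 fold change with SEs of 0.43 to 1.64 (median 1.27, 0 passed in edgeR or DESeq2), with Sdc1 at 1.24 (SE 0.43) and Xbp1 at 1.60 (SE 0.80). Of 17 genes of monocytes and neutrophils 7 were positive (median -0.32, 0 passed in edgeR, DESeq2 called 2). Of all its genes DESeq2 called 0.335% higher and 0.540% lower. Cd68 was at 1.45 (SE 0.21, edgeR adjusted p = 0.0579, and 0.00936 with the replicate block) and Csf3r at -0.81 (SE 0.18). The summed level of the 17 genes was 10240 CPM in H2afy_WT 4 and 6830 CPM in H2afy_WT 1. It was 1187 to 3435 CPM in H2afy_KO, and 1551 and 2236 CPM in H2afy_WT 2 and 3. Of 8 genes of B progenitors 8 were negative (median -1.38), all 8 at an unadjusted p under 0.05 (3.69% of all genes were lower at that p), 0 passed in edgeR and DESeq2 called 2 lower (0.540% of its genes). Their sum was 3840 to 5769 CPM in H2afy_KO and 6685 to 8882 CPM in H2afy_WT, with Rag1 at -1.65 (SE 0.47; adjusted p = 0.0467 with the replicate block in edgeR) and Dntt at -0.50 (SE 0.16). Of 7 mature B cell genes 4 were positive (median 0.33), with Cd37 at -0.46 (SE 0.17), and 0 passed in edgeR or DESeq2. At an unadjusted p under 0.05 in edgeR 0 of the 7 were higher and 2 lower (3.88% and 3.69% of all genes). Their sum was 449 to 796 CPM in H2afy_KO and 790 to 1177 CPM in H2afy_WT, and 2 of the 7 averaged under 1 CPM. Of 6 T cell genes 5 were positive (median 0.87, Zap70 at 1.37, SE 0.35, Lat at -0.46, SE 0.16), of 7 natural killer and innate lymphoid genes 4 (median 0.06, Klrk1 at 0.68, SE 0.38, Zbtb16 at -0.78, SE 0.77) and of 5 erythroid and megakaryocyte genes 1 (median -1.52, Pf4 at -2.84, SE 0.74, Gata1 at -1.52, SE 0.75). In edgeR 0 of these passed, and DESeq2 called Zap70 higher and Pf4 lower (0.335% and 0.540% of its genes). The summed erythroid and megakaryocyte markers were highest in H2afy_WT 4, at 45.09 CPM, against 2.49 to 26.3 CPM in the other pools. Of 5 progenitor surface genes 3 were positive (median 0.06, Il7r at -0.32, SE 0.12, Kit at -0.26, SE 0.13). The summed T cell markers stayed at 37.3 to 64.7 CPM over both groups and those of natural killer and innate lymphoid cells at 26.5 to 41.4 CPM. What part these cells have in the levels of the 10 genes was not tested.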

How the data were processed

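RNA-seq of 8 sorted progenitor pools was analysed, 4 per genotype. Values are the raw read counts for each Ensembl gene ID that the authors deposited, with no scaling. Reads were 50 bases long and single, from a low-input kit that, per the labels' protocols, makes double-stranded cDNA. The submitters' processing notes name HISAT2 2.0.6 and mm9. Which program and gene models gave the counts, and whether strand was used, is not stated in these sources. GENCODE M1 (NCBIM37, the assembly of mm9) named 37205 of the 37991 IDs, and 2 of 153 list symbols matched through a RefSeq synonym.

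Groups were compared by quasi-likelihood in edgeR (4.0.16), robustly fitted. TMM gave the factors, filterByExpr with a minimum count of 10 left 13722 genes, and Benjamini-Hochberg p-values were held to 0.05. CPM use TMM-scaled library sizes, log2 CPM a prior count of 2, and RPKM divide CPM by the merged exon length. Correlations were tested by exact permutation of the 8 pools, 2-sided, which keeps neither the genotypes nor the pairing of pools together. Alternatives used DESeq2 (1.42.0), limma (3.58.1) voom with sample weights, other factors and filters, a replicate block, immunoglobulin genes left out or as a covariate, and each pool left out (R 4.3.3). The members and lists were chosen with earlier results of these data known. Named genes were the members, H2afy, genes of each further list past the threshold or else the 2 with the smallest p, any tested regulator or sensing gene (not all are named), and the 5 genes most like Siglech. Of the genes with the smallest p, 1 is not reported here. Others named were chosen after their values were seen, among them Ly6c1, Itgad, Ly6a, Ly6d, Igj, Cd74 and the untested genes.

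The fits were tested on simulated data with known changes. No 2 pools agreed within sampling noise (chi-square per degree of freedom at least 103.5 in all 28 pairs). Titles in both genotypes carry numbers 1 to 4, and it is not stated what a number stands for. Across genes, how far same-numbered pools departed from their group means was correlated at r = 0.19, 0.19, 0.36 and 0.41, all over 0.1, so the numbers were read as pairing the pools. Some differently numbered pools passed 0.1 too. Their r was 0.52 (H2afy_KO 1, H2afy_WT 2), 0.45 (H2afy_KO 3, H2afy_WT 4) and 0.17 (H2afy_KO 4, H2afy_WT 3). The values of 0.52 and 0.45 exceeded every same-numbered one. The limit of 0.1 therefore does not single out same-numbered pools, and their pairing is only a hint from the data. Fits with the replicate block and counts over same-numbered pairs rest on that pairing. Nothing states that every pool came from different mice, so the p-values cover the spread among these pools only.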

Additional observations from a re-analysis of the deposited data

How the results depend on the processing

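All 10 members kept a positive log2 fold change under each other tool, filter, scaling, block or left-out pool that tested all 10 (8 of 8 with the filter of 5 CPM in 4 samples), and the median ran from 0.48 to 0.87 with each pool left out. Results that moved did so as follows, and the cause was not tested. Without H2afy_KO 3 and 4 the median was 0.039 and Siglech, Ly6c2 and Cd7 turned (-0.20, -2.01 and -0.0005); without pools 3 and 4 of both genotypes Ly6c2 turned (-0.79). DESeq2 called 2 members, and with the replicate block 5. Over all genes the calls were 0 higher and 0 lower in edgeR, 49 and 79 with DESeq2, 1 and 3 with voom, 1 and 4 with upper-quartile factors or without immunoglobulin genes, 7 and 9 with no filter, 0 and 2 with 5 CPM in 4 samples, 1 and 2 with the immunoglobulin covariate, 4 and 11 with the replicate block, and 249 and 236 with DESeq2 and the block. With each pool left out they were 0 higher and 0 to 1 lower (1 without H2afy_KO 4), and without pools 1 and 2 of both genotypes 7 higher.

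List counts, 0 in edgeR, moved under DESeq2 to 1 (further plasmacytoid markers), 2 (regulators), 2 (interferon), 2 (monocytes and neutrophils), 2 (B progenitors), 1 (T cells) and 1 (erythroid and megakaryocyte genes). Under DESeq2 with the block they were 7, 3, 4, 2, 7, 1 and 1 in that order, with 2 for nucleic acid sensing, 3 for conventional dendritic cells, 2 for mature B cells and 1 for progenitor surface markers. These counts take both directions together. Of all its genes DESeq2 called 0.335% higher and 0.540% lower, and with the block 1.70% and 1.61%. With the edgeR replicate block 1 gene passed among the regulators, 1 among monocytes and neutrophils and 1 among B progenitors. That fit called 0.0292% of all genes higher and 0.0802% lower. With no filter 1 regulator passed. 1 gene of monocytes and neutrophils passed with voom, upper-quartile factors, no filter, no immunoglobulin genes and the immunoglobulin covariate, and 1 plasma cell gene without pools 1 and 2 of both genotypes. The block changed no edgeR call among the 10 members. The relations to the immunoglobulin share kept their side of the threshold with immunoglobulin genes left out of the library sizes, except that Spib then passed on rho (adjusted p 0.0267 against 0.0920). Depth limits Pacsin1 and Lag3 most, at 13 to 117 counts per pool.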
